A study of Mus musculus with 122 samples.

Results

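The nuclear-encoded subunits of the mitochondrial respiratory chain and of ATP synthase were examined in the RNA of sorted mouse lung macrophages in which Cebpb or Csf2rb had been altered. Members were found by gene symbol in the 3 deposited count tables. The symbols began with Ndufa, Ndufb, Ndufc, Ndufs or Ndufv and a digit, with Uqcr, with Cox4 to Cox8 or with Atp5, or were Sdha, Sdhb, Sdhc or Sdhd, and pseudogenes were left out. Of 22050 genes, 84 matched, and 80 reached a mean CPM (counts scaled to library size) of 5 in at least 1 group. By name, 36 belonged to complex I, 4 to complex II, 8 to complex III, 15 to complex IV and 17 to complex V. The lowest member that was kept was Cox4i2, with a highest group mean of 7.25 CPM, followed by Atp5s with 10.1 CPM. The 4 matches below the level were Ndufa4l2, with a highest group mean of 1.96 CPM, Cox8b with 0.140 CPM, and Cox7b2 and Cox8c, which had no counts. The name is not always the complex: Ndufa4 sits in complex IV although it is counted here with complex I, and Atp5s and Atp5sl are not subunits of the enzyme itself.

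Alveolar macrophages live in the air spaces of the lung and clear surfactant lipid, and C/EBPβ (gene Cebpb) is a transcription factor of the myeloid lineage. Adult macrophages from lung lavage came from Cebpb +/+ mice (n = 4) and from Cebpb -/- mice. The latter were split by CD11b into a low (n = 4) and a high (n = 4) fraction. A further lavage set held females of facility 1 (Cebpb +/+ n = 2, +/- n = 3, -/- n = 2), females of facility 2 (+/+ n = 3, -/- n = 2) and males (+/+ n = 2, -/- n = 2). All of these carried the C/EBPb tm1Pfj strain on a mixed background. In the conditional sets, LyzM Cre/Cre Cebpb flox/flox macrophages (n = 2) were set beside Cebpb flox/flox macrophages without Cre (n = 2), and CD11c +/Cre Cebpb flox/flox macrophages (n = 4) beside CD11c +/Cre macrophages without the flox allele (n = 3). LyzM and CD11c drivers act in myeloid cells at large and not only in alveolar macrophages. In the LyzM set Lyz2 was at 33470 and 34730 CPM in the controls and at 2379 and 1089 CPM in the knockout. Cre and Lyz2 thus differed along with Cebpb there. Mice of the C/EBPtm1.2Acle strain, labelled Lip, gave Lip/Lip macrophages of the CD11b low (n = 4) and the CD11b high fraction (n = 4) beside Lip +/+ controls (n = 3), on a mixed background. Premature alveolar macrophages from digested lungs of embryonic day 18 (E18) were Cebpb +/+ (n = 3) or -/- (n = 4), or, in a separate C57BL/6 set of the Csf2rbtm1Cgb/J strain, Csf2rb +/+ (n = 4) or -/- (n = 3). Ly6Chi fetal monocytes of the same day were Cebpb +/+ (n = 3) or -/- (n = 4). RNA matched to chromatin samples was Cebpb wild-type or knockout (n = 3 each), or Lip wild-type or Lip (n = 4 each). In mixed bone marrow chimeras, irradiated hosts received CD45.1 wild-type marrow without Cre together with CD45.2 CD11c-Cre Cebpb fl/fl marrow. Donor macrophages were sorted 5 weeks (knockout n = 4, wild-type n = 3) and 10 weeks (knockout n = 3, wild-type n = 4) later, so that the CD45 allele and Cre differed along with Cebpb there.

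Complex I oxidises NADH and complex II oxidises succinate, complex III passes the electrons to cytochrome c, complex IV passes them to oxygen, and complex V uses the proton gradient to make ATP. Most subunits are nuclear genes whose proteins are imported and joined to a core encoded by mitochondrial DNA. Several complex IV subunits exist as paralogues: Cox6a2 and Cox7a1 are known as the heart and muscle forms of Cox6a1 and Cox7a2, Cox6b2 as a testis form of Cox6b1, and Cox4i2 as a lung form of Cox4i1. Alveolar macrophages are known to rely strongly on oxidative metabolism.

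The 250 bases before the annotated start of 4 members are shown because the text returns to them. Ndufa4 and Ndufa13 had a C/EBPβ peak at the start and opposite changes of RNA, Cox7a1 was the member called lower most often and had no peak nearby, and Atp5l had a peak but was called in none of the mutant against control comparisons. Sequences are from RefSeq (GRCm38.p6), read 5′ to 3′ on the gene's strand, at chr6:11907451-11907700 (minus strand, Ndufa4), chr8:69902021-69902270 (minus, Ndufa13), chr7:30183921-30184170 (plus, Cox7a1) and chr9:44920743-44920992 (minus, Atp5l). Capitals mark matches to the cores of NRF1 (GCATGCG), GABP (CCGGAAG), YY1 (AAGATGG), the ERR motif (AAGGTCA) or the C/EBP site (TTGCNCAA) on either strand. Only Atp5l of these 4 held any.
Ndufa4: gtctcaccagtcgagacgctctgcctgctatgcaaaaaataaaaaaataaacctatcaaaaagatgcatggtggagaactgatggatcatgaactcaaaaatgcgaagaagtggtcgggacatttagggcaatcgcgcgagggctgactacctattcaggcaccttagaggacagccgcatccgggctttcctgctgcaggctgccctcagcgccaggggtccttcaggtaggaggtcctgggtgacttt
Ndufa13: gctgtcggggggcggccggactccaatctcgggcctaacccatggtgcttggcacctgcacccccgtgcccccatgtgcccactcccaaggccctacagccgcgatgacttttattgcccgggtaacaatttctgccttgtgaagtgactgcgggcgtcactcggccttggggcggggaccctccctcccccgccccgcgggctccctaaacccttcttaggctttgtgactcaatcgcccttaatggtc
Cox7a1: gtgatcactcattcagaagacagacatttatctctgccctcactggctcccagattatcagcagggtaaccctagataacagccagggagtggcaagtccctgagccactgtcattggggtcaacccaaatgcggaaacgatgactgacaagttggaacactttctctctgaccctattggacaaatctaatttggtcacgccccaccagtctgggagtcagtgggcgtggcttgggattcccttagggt
Atp5l: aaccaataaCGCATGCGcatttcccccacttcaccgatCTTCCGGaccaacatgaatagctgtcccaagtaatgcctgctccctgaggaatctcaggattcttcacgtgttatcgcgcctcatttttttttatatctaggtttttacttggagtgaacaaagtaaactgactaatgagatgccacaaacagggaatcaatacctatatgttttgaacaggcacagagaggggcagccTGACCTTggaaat

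The 99 RNA libraries held 642269 to 17834909 counts, and the members took 1.70 to 4.29 percent of them. Cebpb itself was at 9.59 to 157 CPM in the libraries of its knockouts and at 285 to 3192 CPM in their controls. In the heterozygous females it was at 607 to 1235 CPM against 1336 to 1804 CPM, which did not pass the test. Csf2rb was at 292 to 358 CPM in its knockout against 760 to 1170 CPM in its controls. Siglecf, a marker of mature alveolar macrophages, was at 197 to 635 CPM in all adult lavage controls but at 0 to 19.0 CPM in the E18 premature macrophages. The labels name the replicates without saying that each came from a separate animal, and p-values therefore cover only how far these samples varied. CPM come from 3′ counts and are compared between groups, not between genes.

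In E18 premature macrophages without Cebpb, 25 of the 79 members tested fell and 1 rose by edgeR's quasi-likelihood test (adjusted p under 0.05, Benjamini-Hochberg over all genes), the members being spread over all 5 complexes. Over all 10047 genes tested there, 9.55% fell and 12% rose. The median log2 fold change was −0.64 over the members and −0.02 over all genes, and 73 of the 79 members had a negative value. By complex, 13 of 36 fell in complex I (median −0.65), 2 of 4 in II (−0.47), 3 of 8 in III (−0.79), 5 of 14 in IV (−0.80) and 2 of 17 in V (−0.60). The summed CPM of the members were 31190 to 48860 in the wild-type and 22590 to 25370 in the knockout libraries, which did not overlap. Wild-type replicate 1 was the highest, and without it 11 members were called and the median was −0.41. The count was 16 without wild-type replicate 3, and 17, 14 and 13 without knockout replicates 1, 3 and 4.

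Among the single members, Atp5g3, which encodes the membrane c subunit of ATP synthase, was at 4229, 3577 and 3444 CPM in the wild-type libraries. In the knockout it was at 1324, 1657, 1097 and 1382 CPM, below every control. It fell by 1.46 ± 0.24 (SE) on the log2 scale (edgeR adjusted p = 0.000589). Ndufs1, the largest iron-sulfur subunit of complex I, was at 81.7, 62.4 and 57.1 CPM against 37.6, 26.0, 36.6 and 29.1 CPM in the knockout, and fell by 1.05 ± 0.23 (adjusted p = 0.00404). The accessory complex I subunit Ndufb4 was at 30.94, 11.04 and 17.14 CPM against 7.55, 5.27, 3.77 and 3.47 CPM. The groups did not overlap for either gene, and Ndufb4 fell by 1.96 ± 0.42 (adjusted p = 0.00365). Cox4i2 was found in the wild-type only, at 5.89, 10.1 and 5.71 CPM, apart from 1 count in knockout replicate 1. These were 1 count against 86, a ratio of 112 with a counting interval of 19.5 to 4460. Cox4i2 reached the level of 5 CPM through this wild-type group alone and was tested in 1 of the 17 comparisons, so its difference is a description of the group that admitted it. It is 1 of the 25 members counted as lower and 1 of the 5 in complex IV. Cox7a2l, a factor that joins complexes III and IV into supercomplexes, was the 1 member that rose, from 95.1, 90.1 and 114.0 to 140.7, 148.3, 161.0 and 164.8 CPM. That rise of 0.62 ± 0.19 (adjusted p = 0.0288) lost its call without wild-type replicate 1 (0.0775), wild-type replicate 2 (0.12) or knockout replicate 4 (0.0524).

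The core subunits were not all among those called. Ndufv1, the subunit that binds NADH, fell by 0.82 (adjusted p = 0.00842), and Sdhb, the iron-sulfur subunit of complex II, by 0.70 (0.0159). Sdha, Uqcrc1, Uqcrfs1, Atp5a1 and Atp5b had log2 fold changes of −0.30, −0.42, −0.17, −0.44 and −0.40 that did not pass the test. The alpha and beta subunits of ATP synthase (Atp5a1, Atp5b) were thus not called in the Cebpb knockout.

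In E18 premature macrophages without Csf2rb, the shared beta chain of the GM-CSF receptor, 28 of 78 members fell and none rose by edgeR's test. Of all 9422 genes tested, 11.4% fell and 11% rose. The median log2 fold change was −0.63 over the members against −0.08 over all genes, and 68 of 78 were negative. The falls lay in complex I (12 of 36), II (2 of 4), III (2 of 8), IV (3 of 13) and V (9 of 17, median −0.83). Summed CPM of the members were 25240 to 35440 in the controls and 17950 to 20810 in the knockout. Without each library in turn, 21 to 28 members were called. This set has controls of its own, and no test was made between it and the Cebpb set.

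Atp5g3 was at 2828, 2126, 2200 and 3076 CPM in the Csf2rb controls and at 516, 703 and 584 CPM in the knockout. It fell by 2.09 ± 0.21 (adjusted p = 0.000146), and all 3 knockout libraries lay far below the lowest control. Atp5b was at 1395, 1694, 1364 and 1297 against 623, 799 and 533 CPM and fell by 1.14 ± 0.20 (adjusted p = 0.00282). Atp5a1 was at 754 to 920 CPM against 305 to 488 CPM and fell by 1.03 ± 0.20 (adjusted p = 0.00625). Atp5a1 and Atp5b were thus lower in every knockout library than in every control. Ndufc1, a small accessory subunit of complex I, was at 93.4, 161.0, 68.8 and 85.3 CPM against 4.02, 25.9 and 10.8 CPM, and fell by 2.95 ± 0.59 (adjusted p = 0.00639). Cox7a1 had 406 counts over the controls (17.1, 31.6, 8.48 and 12.2 CPM) and none in the 3 knockout libraries. At a floor of 3 counts over the knockout group it was at least 45-fold lower (edgeR adjusted p = 0.00414). Cebpb was not called in these cells, with 2213 to 2812 CPM against 2548 to 3433 CPM.

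**Figure D1:**
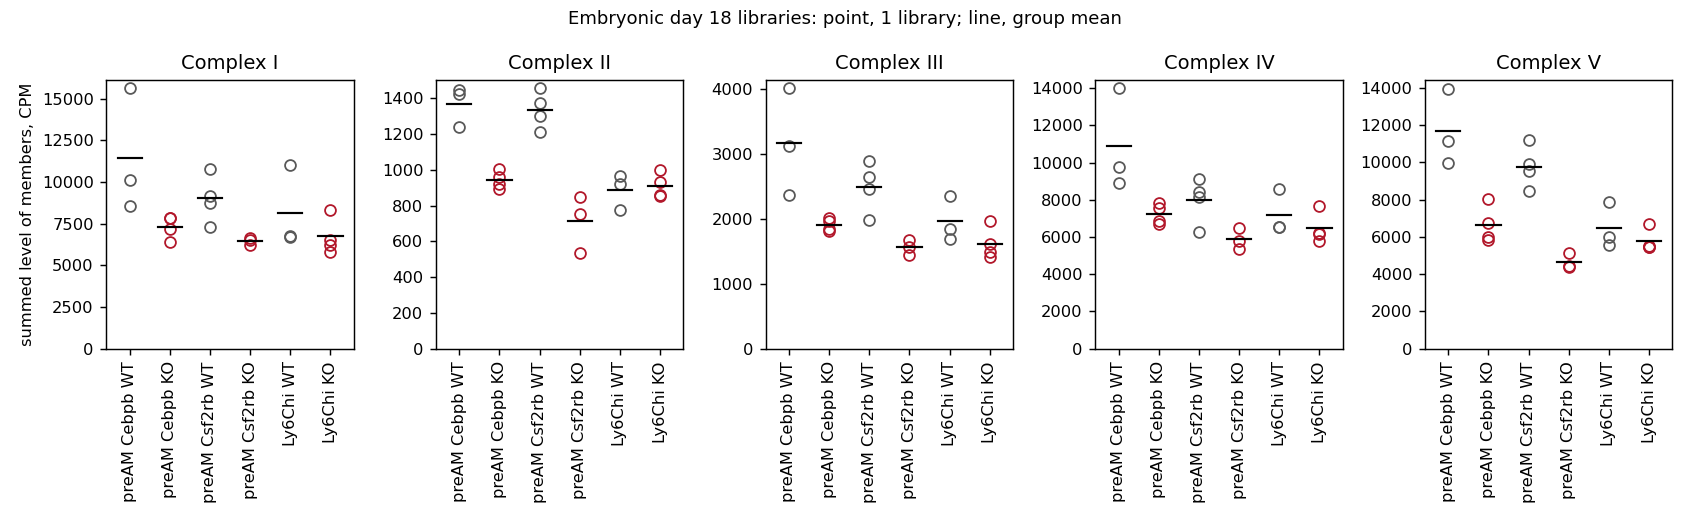
Summed CPM of the members of complexes I to V (one panel each) in 6 groups of E18 libraries, with a point for each library and a line at the group mean. In both sets of premature macrophages the knockout libraries lie low, while the Ly6Chi monocyte groups overlap. The Csf2rb groups overlap in complex IV, where knockout replicate 2 (6468) lies above wild-type replicate 3 (6270). Summed over all 5 complexes the Cebpb wild-type libraries were at 31190 to 48860 and the knockout libraries at 22590 to 25370.

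Other marker lists moved in these same libraries, and their part in the members' changes was not tested. Of the alveolar macrophage markers, 12 of 16 tested fell in the Cebpb knockout and 2 rose, and their summed CPM went from 4642 to 5298 in controls to 574 to 723. In the Csf2rb knockout 11 of 17 fell, with sums of 4698 to 6164 against 226 to 662. Marco, Car4, Fabp4, Cidec and Olr1 were at 0 in at least 1 knockout library. Monocyte markers summed to 3551 to 3910 against 3307 to 4162 CPM in the Cebpb set, and to 3382 to 3677 against 7600 to 8558 CPM in the Csf2rb set. Dendritic cell markers were at 39.8 to 67.4 in the Cebpb controls and 657 to 1109 in the knockout, and at 50.0 to 70.1 against 174 to 316 in the Csf2rb set. In the Cebpb set neutrophil markers were at 177.5 to 371.2 CPM in controls and 14.7 to 52.7 CPM in the knockout, epithelial markers at 34.6 to 39.8 against 124 to 252 CPM and cell cycle genes at 1705 to 1986 against 1163 to 1665 CPM. In the Csf2rb set erythroid markers were at 2098 to 3714 against 7359 to 10440 CPM and cell cycle genes at 1473 to 1725 against 201 to 574 CPM. The Csf2rb controls had 11639 to 12557 genes detected and the knockout libraries 9387 to 9418. In such bulk samples, fewer cells of a type and less RNA per cell cannot be told apart.

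The Ly6Chi fetal monocytes gave a comparison of the same Cebpb deletion in another sorted cell of that day. Among 77 members tested, edgeR called none, 6 had an unadjusted p under 0.05 and DESeq2 called none, while 3.62% of all genes were called. The median was −0.23 against 0.01 over all genes, and 56 of 77 were negative. Without wild-type replicate 3 the median was 0.01, and without knockout replicate 3 edgeR called 1 member. Atp5g3 was at 1660, 1449 and 1761 CPM in the controls and 1361, 1065, 1594 and 1356 CPM in the knockout, which overlapped. Its log2 fold change was −0.27 (adjusted p = 0.531). Alveolar macrophage markers were at 834 to 1087 against 149 to 275 CPM in these monocytes and neutrophil markers at 1171 to 1903 against 196 to 766 CPM. Epithelial markers were at 19.6 to 80.7 CPM in the controls. In knockout replicates 1 to 4 they were at 28.3, 1312, 873.6 and 86.2 CPM. Erythroid markers were at 21990 CPM in wild-type replicate 3 and 36850 CPM in knockout replicate 3, against 3505 to 7783 CPM in the other libraries. The part of these lists was not tested.

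In adult macrophages without Cebpb, members moved in both directions. In the CD11b low cells 9 of 78 rose and 2 fell, with 8.28% and 6.81% over all 8502 genes. In the CD11b high cells 4 rose and 6 fell, with 12.2% and 11.8% over all genes. Medians were 0.16 and 0.02 over the members and 0.00 and 0.01 over all genes. Both comparisons used the same 4 wild-type libraries. Summed CPM of the members were 20970 to 22210 in the wild-type, 22880 to 29320 in CD11b low and 21360 to 23850 in CD11b high cells. In the CD11b low comparison the count of 11 went to 6, 6 and 5 without wild-type replicates 1, 2 and 3, and to 5 and 7 without knockout replicates 2 and 4. In the CD11b high comparison 23 members were called without knockout replicate 3. The summed alveolar macrophage markers were 14770 to 18380, 7776 to 10560 and 2513 to 6286 CPM in wild-type, CD11b low and CD11b high cells, and the monocyte markers 465 to 725, 3682 to 6881 and 4404 to 5940 CPM. Their part in the members' changes was not tested.

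Ndufa4 was at 67.6, 109.8, 178.9 and 146.6 CPM in the wild-type, at 50.6, 61.9, 51.0 and 32.4 CPM in the CD11b low and at 36.2, 34.5, 10.9 and 39.3 CPM in the CD11b high knockout. Every knockout library lay below every control. It fell by 1.38 ± 0.31 (adjusted p = 0.00447) and 2.01 ± 0.32 (8.68e-05). Cox6b2 was at 148.5, 70.5, 79.5 and 99.4 CPM in the wild-type and at 33.9, 21.9, 13.6 and 40.2 CPM in CD11b high cells. It fell there by 1.78 ± 0.29 (adjusted p = 8.68e-05), whereas the CD11b low libraries were at 66.0 to 82.4 CPM with a log2 fold change of −0.41 (0.342). The CD11b high minus low difference of −1.38 ± 0.29 passed the test (0.00777) and was the 1 member called of 78, with 2.61% lower over all genes. That count was 2 without CD11b low replicate 2 and 3 without CD11b high replicate 3. Uqcrq, a small subunit of complex III, was at 290 to 369 CPM in the wild-type. In the CD11b low knockout it was at 497 to 1007 CPM and in the CD11b high knockout at 416 to 830 CPM. It rose by 0.99 ± 0.25 (0.00944) and 0.90 ± 0.25 (0.0118). Cox4i1, the common form of its subunit, rose by 0.87 ± 0.22 (0.00927) in CD11b low cells, from 1191 to 1540 CPM up to 2155 to 3300 CPM.

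Cox6a2 and Cox7a1, the muscle forms of their subunits, moved in opposite directions in the knockout. Cox6a2 was at 1.33, 24.4, 1.99 and 8.20 CPM in the adult wild-type, 26.0, 159.8, 46.5 and 88.4 CPM in CD11b low and 1070, 436, 158 and 287 CPM in CD11b high cells. Every knockout library exceeded every control. The wild-type group alone would not have passed the count filter, so Cox6a2 was tested here because it was high in the knockout. Its calls partly describe the groups that admitted it. The rise of 5.91 ± 0.89 in CD11b high cells (adjusted p = 0.000288) held without each library, while that of 3.23 ± 0.91 in CD11b low cells (0.0303) lost its call without wild-type replicates 1, 3 or 4 or knockout replicates 2 or 4 (adjusted p 0.0565 to 0.096). Its common paralogue Cox6a1 was at 911 to 1124 CPM in the wild-type, against 985 to 1423 CPM in the low and 912 to 1187 CPM in the high fraction, and had log2 fold changes of 0.18 and 0.06 (0.559 and 0.852). Cox7a1 was at 18.6, 17.6, 17.2 and 28.7 CPM in the wild-type and at 0, 6.74, 9.52 and 6.38 CPM in CD11b high cells, and fell by 1.92 ± 0.49 (0.00631). In CD11b low cells it was at 6.84, 3.44, 8.97 and 8.72 CPM, and its fall of 1.46 ± 0.47 (0.0431) lost its call without any 1 of the 8 libraries (0.0568 to 0.13).

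**Figure D2:**
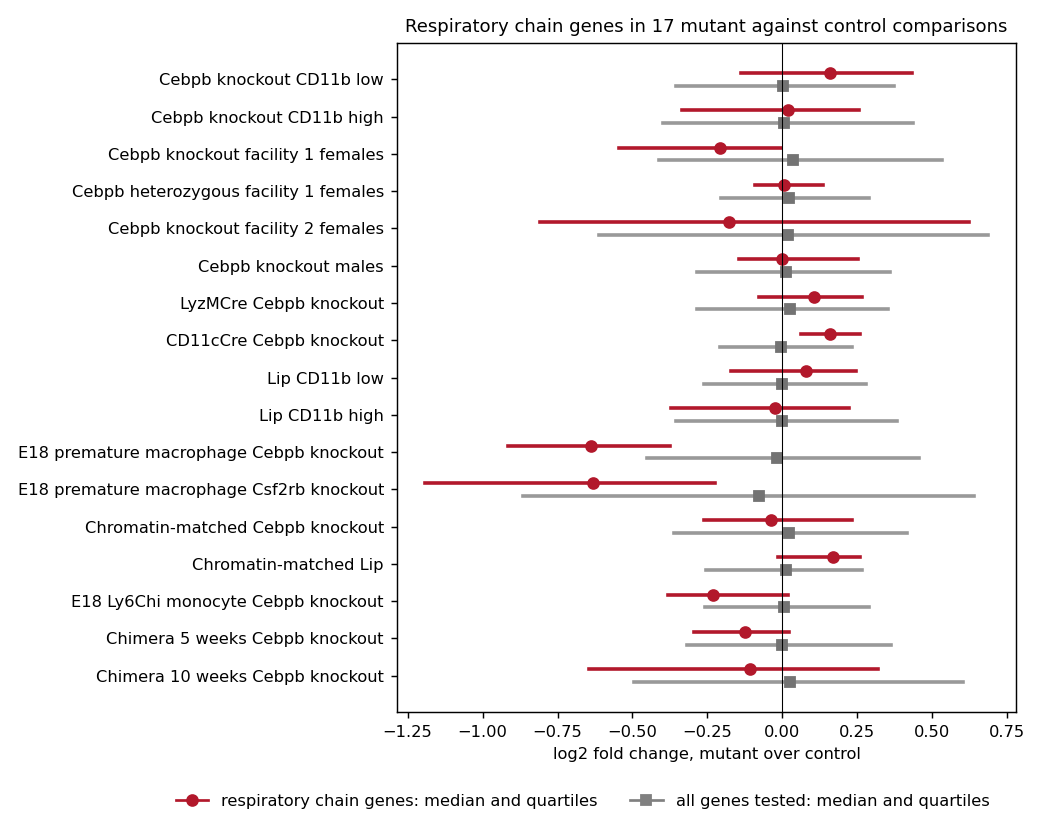
Median log2 fold change (circles) with quartiles (lines) of the members, and the same over all genes tested (squares), in 17 comparisons of a mutant group with its control. The members' median is farthest below that of all genes in the 2 knockouts of E18 premature macrophages, at −0.64 and −0.63, and lies between −0.23 and 0.17 elsewhere.

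The facility and sex set repeated the deletion in adult macrophages of 3 strata. In facility 1 females 2 of 79 members rose and 12 fell, with 12.5% and 10.8% over all 11040 genes. In facility 2 females 21 rose and 24 fell (24.9% and 22.7%, or 47.6% in either direction), and in males 2 rose and 1 fell (7.12% and 3.76%). Medians of the members were −0.21, −0.18 and 0.00. In the facility 1 females heterozygous for Cebpb, which share the controls of the knockout, edgeR called none of 79, 1 had an unadjusted p under 0.05, DESeq2 called none, and 0.634% of all genes were called (0.462% higher). The average effect over the 3 strata was called higher for 4 and lower for 20 members (23.4% and 22.1% over all genes). The facility 1 count of 14 was 8 without wild-type replicate 2 or knockout replicate 2. In males, the count of 3 was 0 without wild-type replicate 1 or 2 and 1 without knockout replicate 1 or 2. Alveolar macrophage markers summed to 17400 to 19070 CPM in facility 1 controls and 7242 to 10010 CPM in the knockout, to 18810 to 23060 against 4285 to 8415 CPM in facility 2 and to 15650 to 16630 against 12140 to 12800 CPM in males. Monocyte markers were at 368 to 725 against 6362 to 6870, 474.2 to 781 against 4415 to 4574, and 474.5 to 497.7 against 2783 to 3549 CPM. The smallest shift of either list was thus in males, and the part of these lists in the differences between strata was not tested. In facility 2, the knockout libraries differed in depth (2345778 and 12687928 counts), and the median was 0.02 without knockout replicate 1 and −0.44 without knockout replicate 2.

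In facility 2 females Cox6a2 was at 0.288, 0 and 1.11 CPM in the wild-type and at 437.2 and 799.2 CPM in the knockout, a rise of 10.48 ± 0.70 (adjusted p = 1.18e-07). In facility 1 it had 1 count in the controls and 1420 in the knockout (72.4 and 226.2 CPM), a ratio of 1070 with a counting interval of 192 to 42300. In males it was at 2.25 and 2.04 CPM against 23.2 and 14.9 CPM, a rise of 3.16 ± 0.75 (0.0158) that kept its call in 1 of 4 refits without 1 library. Cox6a2 was higher in every knockout library of the 3 strata. Cox7a1 had 321 counts in the facility 2 wild-type (15.1, 14.7 and 13.9 CPM) and 3 in the knockout (0.854 and 0.0961 CPM), a ratio of 75.2 with a counting interval of 25.5 to 366. In facility 1 it was at 17.9 and 18.9 against 4.31 and 3.34 CPM, and fell by 2.25 ± 0.40 (0.000477). In males it was at 18.3 and 13.9 against 12.5 and 5.70 CPM, with a log2 fold change of −0.80 (0.188).

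Uqcrh, the hinge subunit of complex III, differed between the strata. In facility 2 females it was at 310.2, 314.3 and 327.1 CPM in the wild-type and at 32.9 and 61.0 CPM in the knockout, and fell by 2.71 ± 0.23 (adjusted p = 4.54e-08). In facility 1 females it was at 240.8 and 313.3 against 226.4 and 221.3 CPM, and in males at 179.9 and 146.7 against 309.1 and 260.4 CPM. The fall was thus seen in facility 2, and the male knockout libraries were above their controls. The facility 2 minus facility 1 difference in the effect was −2.40, and the male minus female difference 2.31, and both held their calls without each library. Ndufa13, an accessory subunit of complex I also known as GRIM-19, rose by 1.73 ± 0.24 (1.42e-05) in facility 2, from 508.3, 461.0 and 480.2 to 965.9 and 2242 CPM. The labels give the males no facility, and the male effect was set against the mean effect of the females of both facilities, so that sex and facility cannot be told apart in that contrast. Counting all members, 17 of 79 differed between the facilities (10 higher and 7 lower, with 3.44% and 4.17% over all genes, together 7.61%) and 14 between males and females (13 higher and 1 lower, with 6.16% and 4.43%). The first count was 11 and 8 without facility 1 wild-type replicates 1 and 2, and 5 and 10 without facility 1 knockout replicates 1 and 2. It was 9, 11 and 11 without facility 2 wild-type replicates 1, 2 and 3, and 33 without facility 2 knockout replicate 1. The second was 26 and 23 without facility 2 knockout replicates 1 and 2, 6 and 4 after leaving out wild-type male 1 or 2, and 6 and 8 after leaving out knockout male 1 or 2.

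In the conditional deletions few members were called. With CD11c-driven Cre, 7 of 79 members rose and 1 fell, with 10.3% and 6.48% over all 9992 genes, and the median was 0.16 against 0.00 with 63 of 79 positive. Ndufb8 and Atp5e, a complex I accessory subunit and the epsilon subunit of ATP synthase, were at 136 to 141 against 80.5 to 95.2 CPM and at 636 to 716 against 411 to 465 CPM. They rose by 0.67 ± 0.11 (adjusted p = 0.000967) and 0.60 ± 0.11 (0.00169). Ndufa4 was at 152.3, 130.2 and 172.7 CPM in the controls and at 104.5, 85.0, 102.5 and 78.1 CPM in the knockout, and fell by 0.71 ± 0.14 (0.00373). Cox6a2 was at 0.211, 1.16 and 0.165 against 1.67, 5.95, 8.42 and 4.65 CPM, and rose by 3.30 ± 0.68 (0.00476). The groups did not overlap for any of these 4 genes. Alveolar macrophage markers summed to 49650 to 53330 against 20740 to 28910 CPM, monocyte markers to 844 to 914 against 2030 to 2828 CPM and neutrophil markers to 82.6 to 100 against 332 to 397 CPM. Their part in the members' changes was not tested. The count of 8 was 4 without control replicate 3, 5 without knockout replicate 2 and 27 without knockout replicate 4. With LyzM-driven Cre (n = 2 against 2), edgeR called none of 77 members, 1 had an unadjusted p under 0.05, DESeq2 called none, and 4.68% of all genes were called (2.96% higher). The median of the members was 0.10, and it was −0.02 without knockout replicate 1 and 0.18 without knockout replicate 2. Knockout replicates 1 and 2 held 909515 and 4659853 counts, and their members summed to 31480 and 24620 CPM. Cox7a1 was at 21.9 and 29.2 against 4.92 and 14.1 CPM there and Ndufa4 at 129.9 and 139.4 against 91.1 and 103.2 CPM, neither of which passed the test (0.231 and 0.463). Alveolar macrophage markers were at 30920 to 34110 against 11090 to 17040 CPM in that set and monocyte markers at 1441 to 1475 against 3758 to 3792 CPM.

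In Lip macrophages 13 of 77 members rose and 12 fell in CD11b low cells (14% and 11.8% over all 8918 genes), and 13 rose and 24 fell in CD11b high cells (20.8% and 18.5%). The medians were 0.08 and −0.02. Both comparisons used the same 3 Lip +/+ libraries, and without control replicate 1 the medians were 0.15 and 0.03. Ndufa4 was at 156.3, 172.1 and 134.3 CPM in the controls, 71.1, 71.2, 94.9 and 98.9 CPM in CD11b low and 33.2, 20.1, 35.2 and 35.2 CPM in CD11b high cells. The 3 groups did not overlap. Ndufa4 fell by 0.85 ± 0.13 (adjusted p = 1.7e-06) and 2.30 ± 0.16 (2.06e-16), and the CD11b high minus low difference was −1.45 ± 0.16 (1.03e-09). Cox6b2 was at 63.7, 72.6 and 51.5 CPM in the controls, 64.5, 64.4, 64.2 and 49.7 CPM in CD11b low and 17.9, 25.8, 25.3 and 28.8 CPM in CD11b high cells. It fell by 1.35 ± 0.18 (3.05e-08) in the latter, and the difference between the sorted fractions was −1.29 ± 0.17 (6.85e-08). Cox7a1 was at 31.9, 20.0 and 27.4 CPM in the controls and 7.66, 12.4, 9.19 and 4.80 CPM in CD11b high cells, a fall of 1.61 ± 0.29 (9.61e-06). Cox6a2 was too low for the test in this set, with 1 count in the controls and 26 in CD11b high cells, a ratio of 23.1 with a counting interval of 3.80 to 947. The alveolar macrophage markers summed to 33190 to 35350 CPM in the Lip controls. In the mutant they were at 17080 to 22020 CPM in the low and 8392 to 10650 CPM in the high fraction. The monocyte markers were at 776 to 836, 1068 to 1363 and 2818 to 3756 CPM in the same order, and the part of either list in the members' changes was not tested. In total 17 members differed between the Lip fractions, 3 higher and 14 lower in CD11b high cells (10.1% and 9.45% over all genes).

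Complex III and other members moved both ways in the Lip CD11b high cells. Uqcrc1, a core subunit of complex III, was at 97.2 to 134.7 CPM in the controls and 153.2 to 194.9 CPM in the mutant, and rose by 0.65 ± 0.12 (adjusted p = 2.44e-05). Uqcrc2, its partner core subunit, was at 166.6, 193.8 and 161.7 against 101.3, 106.0, 105.7 and 95.9 CPM and fell by 0.77. Atp5d, the delta subunit of ATP synthase, rose by 0.59 ± 0.10 (2.34e-06), from 532 to 613 CPM up to 794 to 923 CPM, whereas Atp5b fell by 0.58 (1.14e-06). None of these 4 overlapped between the groups. In CD11b low cells Cox4i1 rose by 0.60 ± 0.10 (2.97e-06), from 1176 to 1460 CPM up to 1737 to 2069 CPM, Atp5j2 rose by 0.57 ± 0.10 and Cox7c fell by 0.69 ± 0.11 (2.11e-06).

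In the RNA matched to chromatin samples, 4 of 79 members rose and 9 fell in the Cebpb knockout, with 14.6% and 12.6% over all 10262 genes and a median of −0.04. Cox6a2 was at 0.230, 0.919 and 0.732 CPM in the wild-type and 183.3, 115.1 and 127.6 CPM in the knockout, and rose by 7.71 ± 0.36 (adjusted p = 1.86e-06). Ndufa4 was at 96.9, 99.8 and 75.8 against 19.6, 17.7 and 21.7 CPM, and fell by 2.203 ± 0.181 (2.64e-05). Neither overlapped between the groups, which was a condition for naming them. The Cox6a2 controls held 1, 5 and 4 counts. Cox6a2 thus passed the count filter through the knockout libraries alone, and its rise partly describes the group that admitted it. Cox7a1 was at 15.4, 14.2 and 14.5 against 6.05, 2.03 and 1.72 CPM and fell by 2.12 ± 0.42 (0.00461). Cox6b2 fell by 2.11 ± 0.51 (0.0212), from 103.6, 88.9 and 75.6 to 20.2, 36.2 and 6.66 CPM, and lost its call without wild-type replicate 1 (0.0669) or 2 (0.059) or knockout replicate 1 (0.0678). The count of 13 was 5, 4 and 6 without wild-type replicates 1, 2 and 3, and 6, 7 and 30 without knockout replicates 1, 2 and 3. Alveolar macrophage markers were at 17460 to 19020 CPM in these controls and 2906 to 3504 CPM in the knockout, monocyte markers at 655 to 1107 against 4865 to 8488 CPM and erythroid markers at 212 to 223 against 716 to 1892 CPM. Their part was not tested. In the matched Lip RNA, edgeR called none of 78 members, 2 had an unadjusted p under 0.05, DESeq2 called 1, and 4.94% of all genes were called. Without wild-type replicate 3 edgeR called 1. The median there was 0.17. The alveolar macrophage markers summed to 24390 to 36450 CPM in controls and 16350 to 23600 CPM in Lip cells, a shift whose part was not tested either. Cox6a2 had 3 counts in the matched Lip controls and 66 in the Lip libraries, of which replicate 1 stood at 10.4 CPM and the others at 0.676 to 1.07 CPM.

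**Figure D3:**
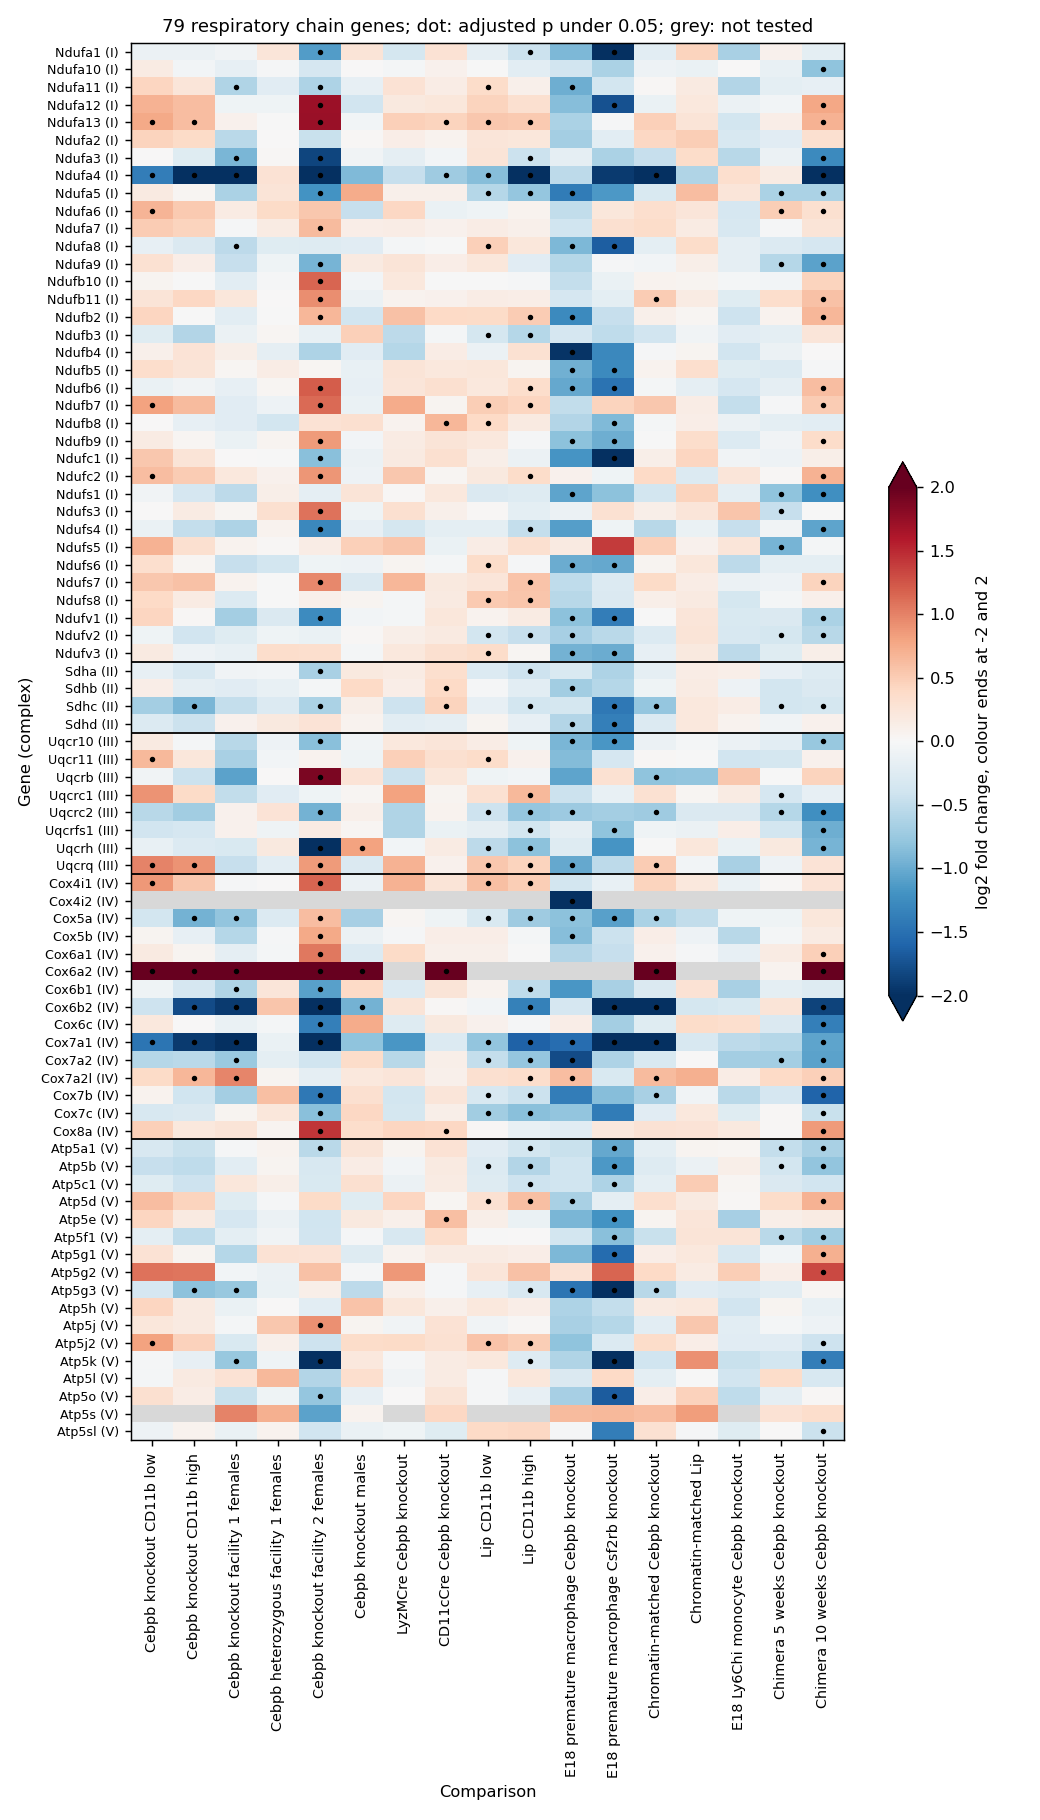
Log2 fold change of 79 of the 80 members (rows, by complex) in the 17 comparisons (columns), with colours ending at −2 and 2, a dot at an adjusted p under 0.05 and grey where a gene was not tested. The E18 premature macrophage columns are blue over most rows, and the rows of Cox6a2 (red) and of Cox7a1, Ndufa4 and Cox6b2 (blue) run across most adult knockout columns.

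In the marrow chimeras cells of both donors developed in the same hosts, but the labels do not say which libraries came from 1 host. At 5 weeks 1 of 79 members rose and 13 fell, with 12.1% and 10.5% over all 11136 genes. At 10 weeks 17 rose and 27 fell, with 24.5% and 21.1% over all genes. Medians were −0.12 and −0.11 over the members and 0.00 and 0.03 over all genes. At 5 weeks Ndufs1 was at 40.4 to 47.7 CPM in knockout and 61.7 to 85.1 CPM in wild-type cells and fell by 0.80 ± 0.15 (adjusted p = 0.00107). Ndufs5, a small complex I subunit, was at 7.34 to 11.6 against 15.2 to 19.8 CPM and fell by 0.93 ± 0.21 (0.00519). Neither gene overlapped between the donors. The 5-week count of 14 was 8, 8 and 7 without knockout replicates 1, 2 and 4, 7 and 6 without wild-type replicates 2 and 3, and 7 with the replicate number as a block. The alveolar macrophage markers summed to 3009 to 3780 CPM in knockout and 8018 to 12590 CPM in wild-type cells at 5 weeks, and to 4517 to 6637 against 22260 to 34110 CPM at 10 weeks. Dendritic cell markers were higher in every knockout library, with sums of 2471 to 4255 against 602 to 757 CPM at 5 weeks. The later sums of this list were 380 to 1605 and 65.8 to 192 CPM. Monocyte markers overlapped at 5 weeks (4500 to 6039 against 5212 to 5673 CPM) and were at 8932 to 11600 against 2280 to 3786 CPM at 10 weeks. Their part in the members' changes was not tested.

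Cox6a2, Cox6b2 and Ndufa4 separated the donors at 10 weeks and not at 5 weeks. Ndufa4 was at 42.9, 34.5 and 27.3 CPM in 10-week knockout cells and 152.6, 126.1, 156.1 and 150.9 CPM in wild-type cells, and fell by 2.07 ± 0.24 (adjusted p = 6.27e-06). At 5 weeks it was at 37.0, 57.6, 79.8 and 59.7 against 64.0, 55.4 and 36.4 CPM, with overlapping donors and a log2 fold change of 0.17 (0.641). Cox6a2 was at 37.0, 29.1 and 31.2 CPM in 10-week knockout cells and 3.18, 0, 0.193 and 0.593 CPM in wild-type cells, and rose by 4.49 ± 0.68 (0.000144). At 5 weeks it was at 34.5, 18.7, 8.56 and 14.4 CPM in the knockout and, unlike at 10 weeks, also at 28.8, 14.9 and 10.8 CPM in the wild-type (0.938). Cox6b2 was at 16.6, 6.82 and 12.8 against 43.9, 36.0, 40.3 and 49.8 CPM at 10 weeks and fell by 1.84 ± 0.30 (0.000116), while at 5 weeks both donors were between 6.37 and 17.5 CPM. The 10-week minus 5-week differences were −2.24 ± 0.33 for Ndufa4 (0.000542), 4.41 ± 0.86 for Cox6a2 (0.00496) and −2.10 ± 0.41 for Cox6b2 (0.00336), and each held its call without each library in turn. In all, 13 of 79 effects differed between the times (4 higher and 9 lower, with 7.57% and 5.97% over all genes). That count was 6 and 7 without 5-week knockout replicates 3 and 4, and 5, 4 and 7 without 5-week wild-type replicates 1, 2 and 3. It was 38, 7 and 8 without 10-week knockout replicates 1, 2 and 3, and 7 and 4 without 10-week wild-type replicates 2 and 4. Cox7b, a structural subunit of complex IV, fell by 1.598 ± 0.280 (0.000294) at 10 weeks, from 443.6 to 568.5 CPM down to 107.6 to 286.9 CPM.

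**Figure D4:**
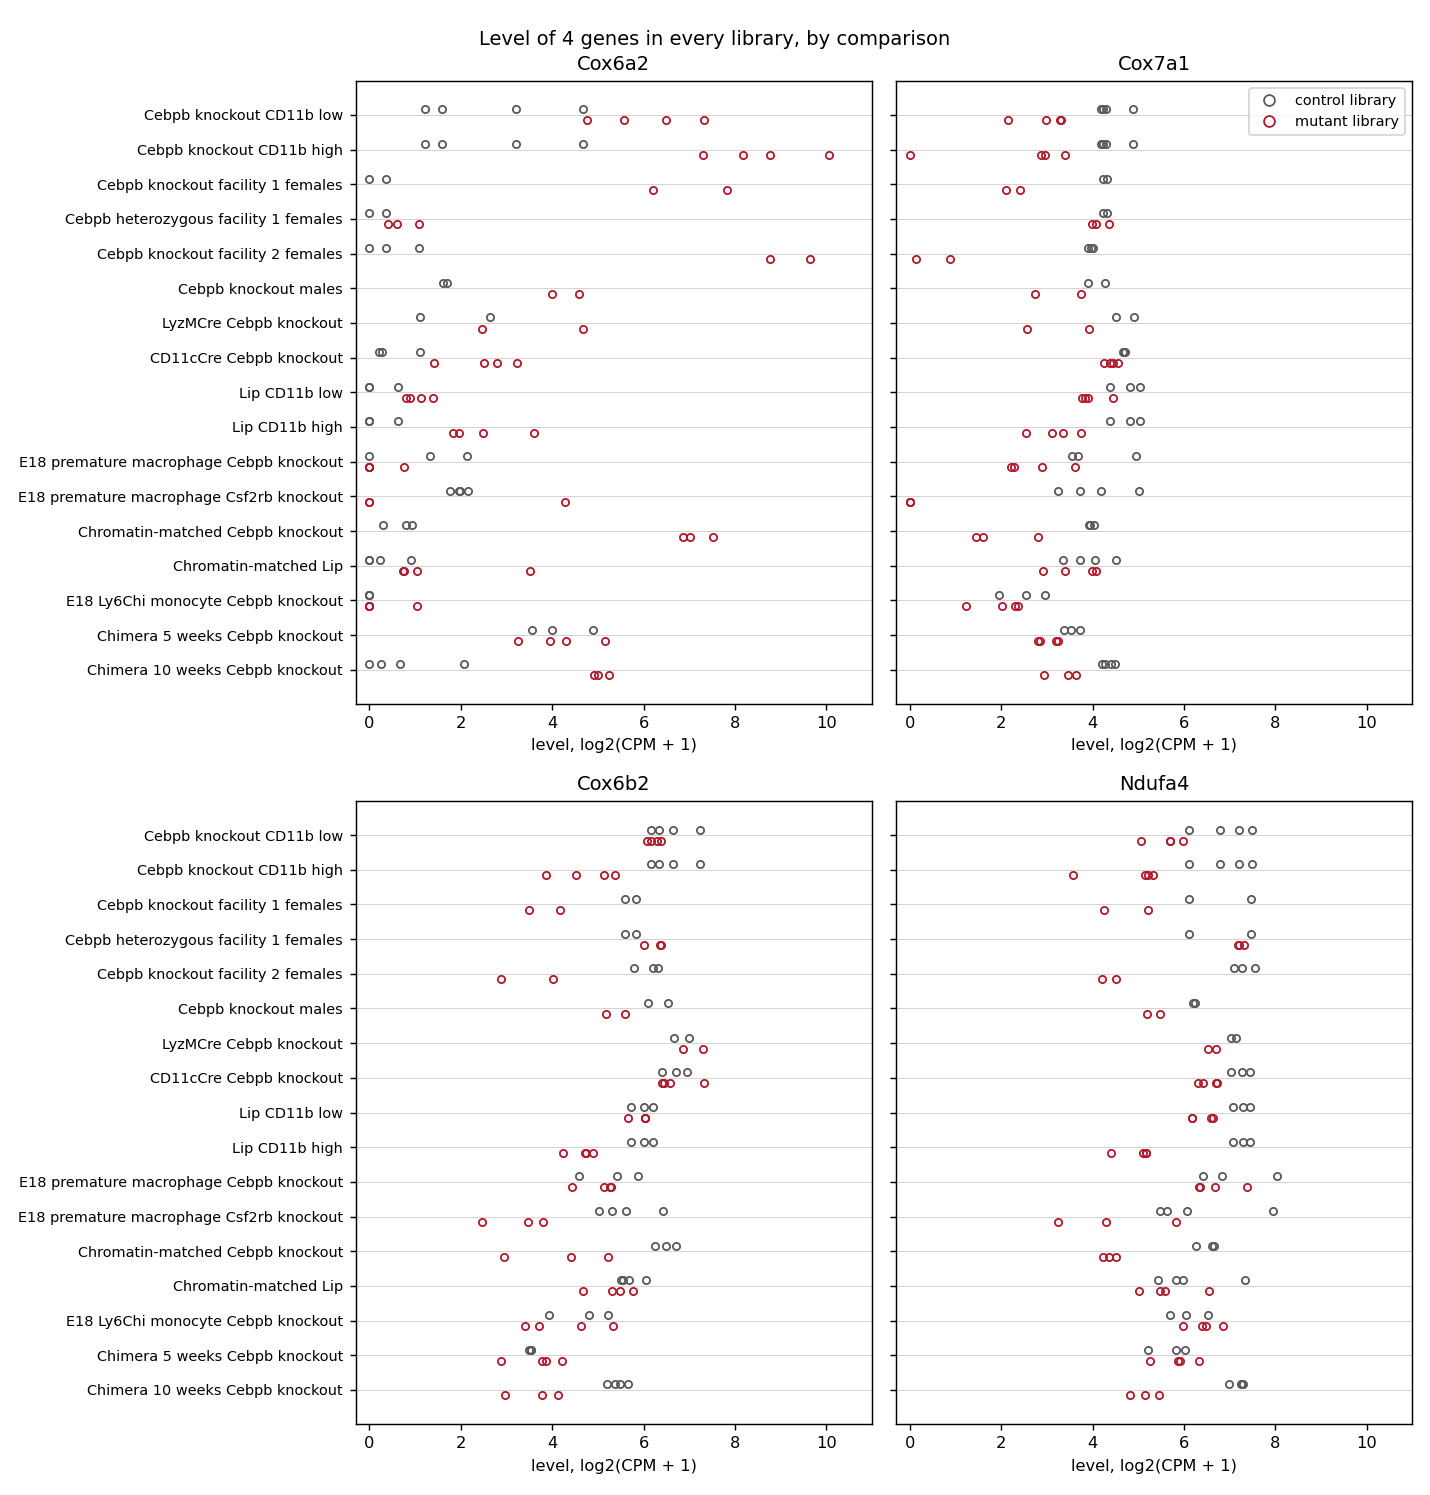
CPM of Cox6a2, Cox7a1, Cox6b2 and Ndufa4 in every library, as log2(CPM + 1), with control libraries in grey and mutant libraries in red for each of the 17 comparisons. Cox6a2 is high in most adult Cebpb knockout libraries, up to 1070 CPM in CD11b high cells, where Cox7a1, Cox6b2 and Ndufa4 are low. In the 5-week chimeras the donors overlap for Cox6a2, Cox6b2 and Ndufa4.

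Over the 17 comparisons of a mutant group with a control, some of which share controls, Cox7a1 was called lower in 10 and higher in none. In these comparisons 0.634% to 47.6% of all genes were called. How often genes outside the members recurred was not counted, so the tallies here rank the members only. Ndufa4 was called lower in 9, Cox6b2 in 8 and Uqcrc2 in 7. Cox6a2 was called higher in 8 of the 10 comparisons in which it was tested, and Ndufa13 in 7. In the matched Cebpb and CD11cCre sets the Cox6a2 controls held 1 to 6 counts per library. It passed the count filter there through the knockout libraries alone, and in the adult set the wild-type group alone would not have passed either. Cox6a2 was too low for the test in the comparisons not among the 10. The 8 of 10 thus partly describes the groups that admitted Cox6a2. Cox5a and Sdhc, the membrane anchor of complex II, were each lower in 7 and higher in 1, and Uqcrq was higher in 6 and lower in 1. Atp5g3, Cox7a2 and Ndufa5 were lower in 6, and Cox7a2l was higher in 6. No member of these 17 comparisons passed in more than 10. Atp5s, Ndufa2, Atp5l and Atp5h were called in none. The common paralogue Cox7a2 was called lower, as was Cox7a1, in facility 1 females, both Lip fractions, the E18 Cebpb knockout and the 10-week chimera, whereas Cox6a1 rose with Cox6a2 in facility 2 females (1.05 ± 0.19, adjusted p = 0.000188), at 2114 and 3447 against 1327 to 1365 CPM. At 10 weeks in the chimeras Cox6a1 also rose with Cox6a2, by 0.48 ± 0.14 (0.0109), at 1093, 1300 and 1695 against 930.4 to 1034 CPM. That call was lost without knockout replicate 3 (0.0893) and with the replicate number as a block (0.0571). Symbols of this family have many processed pseudogenes, and the counting of reads from near-identical copies or overlapping genes is not stated in the sources.

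Other mitochondrial lists were set beside the members, and only some comparisons are given for each list. Subunits encoded by mitochondrial DNA rose in 7 of 7 tested in facility 2 females (median 4.45), 6 of 6 at 10 weeks in the chimeras (2.25) and 6 of 6 in Lip CD11b high cells (0.62). Over all genes 24.9%, 24.5% and 20.8% rose there. In E18 Cebpb knockout cells 2 of 7 of these subunits fell (median −0.94), and in E18 Csf2rb knockout cells none of 6 was called by edgeR (0.93). Over all genes 9.55% fell in the former, and 22.5% were called in either direction in the latter. Summed CPM of these subunits varied widely within the Csf2rb controls (3622, 313, 5050 and 7114, against 7002, 5290 and 8462 in the knockout). In facility 2 females they were at 557.7, 376.4 and 572.9 in the controls and at 8876 and 14880 in the knockout. Mitochondrial ribosomal proteins fell in 33 of 76 in the E18 Cebpb knockout and none rose (median −0.70), with 10 lower and 2 higher of 75 in the Csf2rb knockout (−0.56). Of all genes, 9.55% fell and 12% rose in the first set, and 11.4% fell and 11% rose in the second. Cytosolic ribosomal proteins, by contrast, were called in none of 81 in the E18 Cebpb knockout, and 50 of 81 rose and 2 fell in the matched Cebpb knockout. Of all genes, 21.5% were called in that E18 set, and 14.6% rose and 12.6% fell in the matched set. Citric acid cycle enzymes were lower in 10 of 17 in the 10-week chimera (median −0.49) and in 9 of 17 in Lip CD11b high cells (−0.50), with none higher. Over all genes 21.1% and 18.5% were lower there. In the E18 Csf2rb knockout 5 of 17 fell, among them Mdh2 by 1.46 and Ogdh by 1.19. In the E18 Cebpb knockout Ogdh and Idh3a fell by 0.89 and 0.84, and Fh1 rose by 0.93. Subunits outside the name rule included the acyl carrier Ndufab1, which fell by 0.82, and Usmg5, which fell by 1.51, both in the E18 Cebpb knockout, and cytochrome c1 (Cyc1), which fell by 1.46 in the Csf2rb knockout. The ADP/ATP carrier Slc25a5 fell by 1.68 and the outer membrane channel Vdac1 by 1.34 in the Csf2rb knockout. Of the regulators of mitochondrial biogenesis, the coactivator Ppargc1b rose by 1.12 with CD11c-driven Cre and by 0.92 and 1.09 in Lip CD11b low and high cells, and Tfam fell by 0.82 and 0.50 at 5 and 10 weeks in the chimeras.

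C/EBPβ binding was read from the authors' peak lists of 2 samples of wild-type C57BL/6 alveolar macrophages, at the RefSeq start sites of the 67 members that could be placed. Both lists had a peak within 1 kb of the start for 16 of 67 members (23.9%), against 27.8% of 9550 genes in the fits. Within 10 kb it was 22 of 67 (32.8%) against 46.3%. The 16 were Ndufa4, Ndufa13, Ndufs5, Ndufs6, Ndufs7, Ndufs8, Sdhd, Uqcr10, Uqcr11, Uqcrfs1, Cox5a, Cox7a2, Atp5f1, Atp5g1, Atp5h and Atp5l. At the Ndufa4 start the peaks were at chr6:11907115-11907691 and chr6:11907131-11907626, with summits 7 bases after and 32 bases before the start and the authors' fold of 10.9 and 7.40. At Ndufa13 the authors' fold was 24.2 and 17.3, and at Atp5l, a subunit of ATP synthase whose RNA was called in none of the 17 comparisons, it was 11.7 and 13.2. Cox7a1 had no peak within 10 kb in either list, and Cox6a2 was among the 13 members not placed. Genes with a peak at the start thus included members called lower, called higher and never called. Open chromatin peaks came from 5 cultures of adult alveolar macrophages, labelled MxCre with IFNa (n = 2) or MxCre Cebpb KO with IFNa (n = 3). They lay within 1 kb of 92.5 to 97% of the members and 89.2 to 92% of all genes.

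The sequence from 250 bases before to 50 bases after the start was searched in 73 member promoters, and shares were set beside those of 12144 promoters of tested genes and 32851 promoters in all. The NRF1 core GCATGCG stood in 15.1% of the members, 6.18% of tested genes and 3.58% of all. The GABP core CCGGAAG stood in 21.9%, 17.5% and 8.86%. The YY1 core AAGATGG stood in 17.8%, 7.12% and 6.34%, and the ERR motif AAGGTCA in 11%, 3.19% and 4.72%. The C/EBP site TTGCNCAA stood in 4.11%, 2.53% and 2.94%. The Ndufa4, Ndufa13 and Cox7a1 sequences printed above held none of these letters, while that of Atp5l held the NRF1 core on both strands, the GABP core and the ERR motif. A match of letters is a description of the sequence only.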

How the data were processed

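The 99 RNA libraries were made from polyA ends with primers of the MARS-seq type, per the labels' protocols. The 3 count tables deposited by the authors held whole counts per gene, made with STAR 2.6.1a, featureCounts 1.6.3 and the build GRCm38, going by the tools named per the submitters' processing notes. No source used here says if molecule barcodes were collapsed. The deposited peak lists gave, per the file headers and values, the authors' ratio (fold over local background), −log10 q and a score of 10 times that value. MACS2 2.2.7.1 is listed per the submitters' processing notes. By library, 3 counts correspond to 0.168 to 4.67 CPM. Counting intervals and floors cover counting error only.

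Counts were tested with edgeR 4.0.16 in R 4.3.3: TMM scaling, filterByExpr with a minimum count of 10, robust quasi-likelihood fits over all groups of an experiment, and Benjamini-Hochberg adjustment over all genes at 0.05. Standard errors were taken as the log2 fold change over the square root of the F statistic. Alternatives were other scaling, no filter, mitochondrially encoded genes left out, a replicate block, DESeq2 1.42.0 and each library left out. The procedure was tested on simulated data. No library pair of a group agreed within sampling noise (118 pairs). Replicate numbers paired the 10-week chimera samples, where the deviations of all 3 pairs correlated (0.127 to 0.147). RefSeq start sites were matched by symbol for 64 members and by synonym for 3. Peaks were counted in Python 3.11.15 with pandas 2.3.3 where they overlapped 1000 or 10000 bases to either side. Fits used only the libraries of 1 table, and 14 ATAC samples and 2 inputs were not analysed here.

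Members and lists were chosen with earlier results of these data known, and the ribosomal lists were added after those results were seen. Named genes were, per comparison, up to 3 called members with the largest rise and fall among those with no overlap, the members called most often, paralogue pairs, catalytic and core subunits, and called genes of the other lists. Others were named where a count was 5 or fewer, or for a peak at the start. Values of some single genes are not reported here.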

Additional observations from a re-analysis of the deposited data

Results flagged for a closer look

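In 221 groups of 4 to 10 libraries and values checked, 24 had a library standing apart from the rest of its group, where chance gives about 1 in 20. The knockout replicate 3 of the Ly6Chi monocytes stood above its group in the summed CPM of the members (25660, next 20540), of complex V (6665, next 5516) and of mitochondrially encoded genes (11230, next 6305). It also stood above in Cox7a2 (101.9 CPM, next 48.0) and in Cox6a2 (1.05 CPM, the others at 0). That Cox6a2 value was 3 counts, which is the floor. The sum of complex I was low in matched Lip replicate 4 (6445, next 9335), and the sum of mitochondrially encoded genes in E18 Cebpb knockout replicate 2 (2115, next 5375).

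For Ndufa4, adult CD11b high knockout replicate 3 was at 10.9 CPM (next 34.5), Lip CD11b high replicate 2 at 20.1 (next 33.2), Csf2rb wild-type replicate 2 at 247 (next 66.1) and matched Lip wild-type replicate 3 at 160.5 (next 62.1). For Cox7a1, adult wild-type replicate 4 was at 28.7 CPM (next 18.6) and Lip CD11b low replicate 2 at 21.0 (next 13.9). For Cox6a2, E18 Cebpb knockout replicate 1 was at 0.703 CPM (4 counts, near the floor of 3, the others at 0) and matched Lip replicate 1 at 10.4 (next 1.07). For Cox6b2, CD11cCre knockout replicate 4 was at 158.5 CPM (next 94.5) and Lip CD11b low replicate 4 at 49.7 (next 64.2). For Cox7a2, CD11b high knockout replicate 1 was at 79.2 CPM (next 152.2), Lip CD11b high replicate 1 at 183 (next 136.6) and E18 Cebpb knockout replicate 2 at 79.1 (next 61.9). Sdhc was low in E18 Cebpb knockout replicate 1 (203.6, next 242.2), Uqcrc2 in adult wild-type replicate 1 (122, next 166.7) and Ndufa13 in CD11cCre knockout replicate 4 (677.7, next 730.5). Uqcrq was high in CD11b low knockout replicate 2 (1007, next 560.2).

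The knockout effect of 17 members differed between the facilities by an interaction contrast in edgeR, including Cox7a1 (−3.52), Cox5a (1.41), Uqcrc2 (−1.03), Uqcrq (1.32) and Ndufa13 (1.65, all as log2 differences). It differed for 14 members between males and the mean of the females of both facilities, including Cox7a1 (3.21), Ndufa4 (1.71), Cox6a2 (−7.05), Cox6b2 (1.26) and Cox7a2 (0.93). Between 10 and 5 weeks in the chimeras it differed for 13 members, including Ndufa4 (−2.24), Cox6a2 (4.41) and Cox6b2 (−2.10).

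The labels give the males no facility, and sex and facility cannot be told apart in that contrast. Of 13 refits of the male minus female difference, each without 1 library, Cox6b2 lost its call in 8 (adjusted p 0.0541 to 0.157), Cox7a2 in 4 (0.0806 to 0.106) and Cox7a1 in 0. Ndufa4 lost it in 3 (0.0816 to 0.0922), without male wild-type replicate 1 or 2 or male knockout replicate 1. Cox6a2 lost it without male wild-type replicate 1 (0.0525) or 2 (0.0772), and its −7.05 rests on 1 count in the facility 1 controls, so that its size is no bound. The facility difference lost its call for Uqcrq in 4 refits (0.0593 to 0.108), for Uqcrc2 in 3 (0.0548 to 0.0787), and for Cox5a (0.0536) and Ndufa13 (0.0561) without facility 1 knockout replicate 1. That of Cox7a1 rested on 3 counts in the facility 2 knockout and lost its call without facility 2 knockout replicate 2 (−1.82, adjusted p = 0.232) or facility 1 knockout replicate 1 (0.061). The 3 differences named for the chimeras kept their calls in every such refit.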

How the results depend on the processing

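Of the 364 calls of members over all comparisons, 356 remained calls with DESeq2, 360 with RLE scaling, 341 without the filter on low counts, all 364 without mitochondrially encoded genes, 274 with the replicate block and 197 without each library in turn. Under the replicate block, the count of called members went from 11 to 6 in the CD11b low knockout, from 1 to 2 for CD11b high minus low, from 14 to 8 in facility 1, from 17 to 5 between facilities, from 14 to 8 between sexes, from 8 to 28 with CD11cCre, from 26 to 9 in the E18 Cebpb knockout and from 14 to 7 in the 5-week chimera. The labels tie no number to an animal or host, and in the 5-week chimera same-numbered pairs correlated at 0.00881 to 0.377. In the E18 Cebpb set 3 of 3 pairs correlated best with their own number (0.0361 to 0.0553). In the 10-week chimera, where every pair correlated above 0.1, the block gave 40 in place of 44, and the calls of Ndufb9, Ndufa6, Atp5j2, Cox6a1 and Sdhc were lost. DESeq2 gave 5 for 3 in males, 23 for 14 between sexes, 1 for 0 in matched Lip and 20 for 13 between chimera times. With 1 library left out, counts ran from 5 to 8 (CD11b low), 7 to 23 (CD11b high), 1 to 3 (high minus low), 8 to 13 (facility 1), 38 to 48 (facility 2), 0 to 1 (males), 21 to 33 (strata mean), 5 to 33 (between facilities), 4 to 26 (between sexes), 0 to 42 (LyzMCre), 4 to 27 (CD11cCre), 18 to 31 and 33 to 38 (Lip low and high), 13 to 16 (Lip difference), 11 to 26 (E18 Cebpb), 21 to 28 (Csf2rb), 4 to 30 (matched Cebpb), 0 to 1 (matched Lip, Ly6Chi), 6 to 13 and 36 to 56 (chimeras) and 4 to 38 (chimera difference). Where a group keeps 1 library, as in LyzMCre, it is assumed to vary like the others. The share over all genes in the same refits is not given, so these counts are no result about the members. The call of Ndufa7 in facility 2 (0.63, adjusted p = 0.0345) went to −0.10 without knockout replicate 2 and 1.04 without knockout replicate 1. Members with a C/EBPβ peak in both lists fell from 16 to 10 at a −log10 q of 10. The cause of these changes was not tested. Members were 81 at a level of 1 CPM and 79 at 10 CPM.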
